A study of Mus musculus with 39 samples.

Results

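Lungs of 5 mice that ate permethrin at 10000 ppm for 7 days were compared with lungs of 5 mice that ate the same powdered diet without it for 7 days. These 10 arrays, 1 per animal, were chosen by their titles from the 39 arrays of the series. The animals were outbred Crlj:CD1(ICR) females, aged 11 weeks in the 7-day groups, and the tissue is given as lung. The groups set beside this comparison were permethrin at 10000 ppm for 14 days (4 mice, aged 12 weeks), isoniazid at 2500 ppm for 7 days (5 mice), permethrin at 5000 ppm for 7 days (5 mice), and the control of 14 days (5 mice, aged 12 weeks). Isoniazid, a drug against tuberculosis, served the submitters as a positive control for tumours. The comparison asks what the higher permethrin dose does to gene expression in the lung within a week.

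Permethrin is a pyrethroid insecticide that holds open the voltage-gated sodium channels of nerve cells. Mammals clear it mainly by splitting its ester bond with carboxylesterases and by oxidizing it with cytochrome P450s, and the products are conjugated and exported. In the lung, the club cells of the airway carry most of the P450 and carboxylesterase activity. A line of defence against reactive compounds runs through NRF2, encoded by Nfe2l2. KEAP1 keeps this transcription factor low by marking it for degradation. Electrophiles and oxidants modify KEAP1, NRF2 then accumulates without a change in its own mRNA being needed, and with a small MAF partner it binds antioxidant response elements near genes of glutathione synthesis, the thioredoxin system, NADPH supply and conjugation.

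Each value is a signal intensity of a probe set, quantile normalized over all arrays, and a fold change is the ratio of geometric means. Signals of different genes are not on a common scale, so levels are compared only within a gene. The arrays carried lung markers at high signal in both groups. The club cell gene Scgb1a1 had signals of 8464 to 9304 in all 10 animals. The value of 9304 is the top of the normalized scale, so animals that reach it cannot be told apart in this gene. The type 2 cell gene Sftpc had 6055 to 8122 in permethrin animals and 5649.5 to 7022 in controls. Correlations between the 10 arrays ran from 0.922 to 0.943. The Gapdh 3' to 5' log2 ratio, a measure of RNA degradation, ran from 0.14 to 0.65 with permethrin and from 0.16 to 0.66 in controls. In whole lung, a change in the number of cells of a type and a change of RNA per cell cannot be told apart.

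At an adjusted p of 0.05 (limma, Benjamini-Hochberg over 13020 genes), 31 genes differed after 7 days of 10000 ppm, which is 0.238% of the genes tested. Of these, 30 rose (0.23%) and 1, Id4, fell (0.00768%). At an unadjusted p under 0.05 there were 410 genes. The folds of the 30 genes that rose ran from 1.17 to 5.79, with a median of 2.06. In all 30, each of the 5 permethrin animals lay above the control mean. In 30 of the 31 genes the groups did not overlap, the exception being Osgin1. These genes were called on the same animals, which by itself favours such a separation. Over all genes, 0.868% had every permethrin animal above every control and 0.184% had every permethrin animal below. Of the 30 genes, 26 belong to 15 lists on redox defence, foreign-compound metabolism, transport and sodium channels, which hold 252 of the tested genes. The lists were chosen with earlier results of these data known, so this count is no independent support. The median log2 change over all genes was 0.00, and 6438 of 13020 changes were positive. For 11 of the 31 genes the arrays held 26 further probe sets, and the 21 of these above the filter on low signal all had the sign of the probe set used, 18 of them with an unadjusted p under 0.05.

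**Figure D1:**
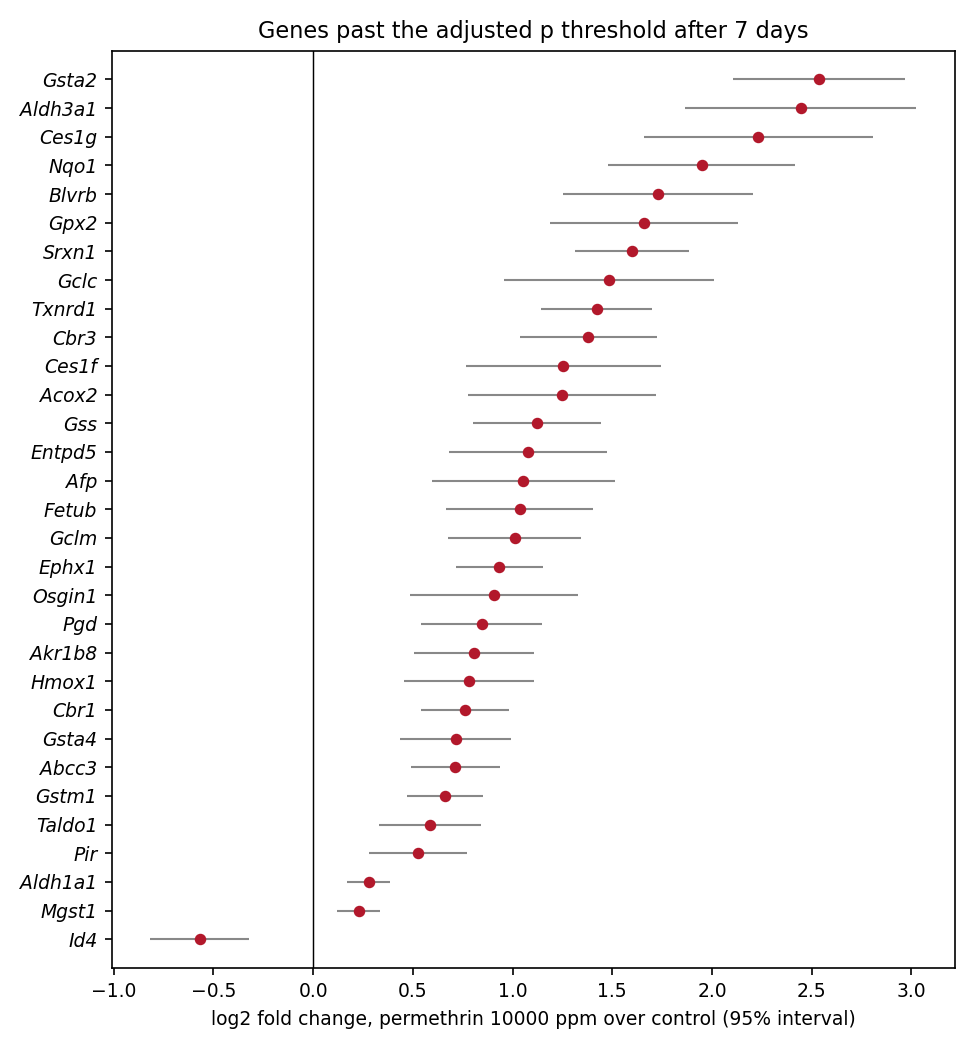
Log2 fold change of permethrin 10000 ppm over control after 7 days for the 31 genes past the threshold, with 95% intervals from the limma model (n = 5 animals each). Gsta2, at 2.53, and Aldh3a1, at 2.45, stand at the top, and Id4, at -0.57, is the only gene below 0.

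The gene with the largest rise uses glutathione. Gsta2, an alpha-class glutathione S-transferase that joins glutathione to electrophiles, had signals of 733, 762, 1028, 1293 and 857 in permethrin animals 1 to 5, against 171, 161, 173, 135 and 151 in control animals 1 to 5. The lowest permethrin animal was more than 4 times the highest control, and Gsta2 was 5.79-fold higher with permethrin (log2 2.53 ± 0.21 SE, adjusted p = 5.53e-10). On the log2 scale Gsta2 averaged 9.84 ± 0.34 with permethrin and 7.30 ± 0.15 in controls (SD, n = 5 each). Of the 20 transferases tested, 4 rose, none fell, and 19 of 20 changes were positive, with a list median of 0.27.

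The other 3 transferases that passed rose less. Gsta4, which acts on 4-hydroxynonenal, a product of lipid peroxidation, was 1.64-fold higher (log2 0.71 ± 0.14 SE, adjusted p = 0.00461), with 824 to 1373 in permethrin animals and 594 to 754 in controls. Gstm1, a mu-class transferase, was 1.58-fold higher, with 2281 to 3126 against 1544 to 1815. Mgst1, a membrane-bound transferase, was 1.17-fold higher, with 4929 to 5602 against 4138 to 4864, so its groups were separated by a narrow gap. Its adjusted p of 0.0457 was near the threshold, and the call was lost in 17 of 25 alternative settings. Mgst3, another microsomal member, also had groups that did not overlap but missed the threshold (log2 0.39, adjusted p = 0.739).

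Synthesis of glutathione begins with glutamate-cysteine ligase, whose catalytic subunit is encoded by Gclc and its modifier subunit by Gclm, and ends with glutathione synthetase, encoded by Gss. All 3 genes rose. Gclc had 1762, 1120.5, 1087, 2797 and 1729 in permethrin animals 1 to 5, and 630.1, 600.3, 731, 525 and 419 in control animals 1 to 5. Permethrin animal 4 was far above animals 2 and 3, yet even those stood clear of the highest control, and the fold was 2.79 (log2 1.48 ± 0.26 SE, adjusted p = 0.00132). A further Gclc probe set gave a log2 change of 1.39. Gclm had 725, 542, 526, 923 and 686 with permethrin, against 302, 365, 409, 311 and 282 in controls, a 2.01-fold rise (adjusted p = 0.000351). The ranking of the 5 permethrin animals was alike in both subunits, with animal 4 highest and animals 2 and 3 lowest. Gss had 182 to 262 with permethrin and 82.6 to 116 in controls, 2.18-fold higher (adjusted p = 2.64e-05). Glutathione reductase, Gsr, which restores the reduced form, had a log2 change of 0.71 and missed the threshold (adjusted p = 0.28). Its permethrin animals had 307 to 410.2, and among controls animal 1 had 315 while the other 4 had 189 to 211. In the list of synthesis and recycling, 3 of 15 genes rose and none fell, with a median of 0.09.

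Gpx2, a glutathione peroxidase known from gut and airway epithelium, was the only one of 10 peroxidases, superoxide dismutases and catalase past the threshold. Its signals were 546, 437, 459, 621 and 504 in permethrin animals, and 179.9, 175, 197, 144 and 123 in controls. The groups were widely separated, with a 3.15-fold difference (log2 1.66 ± 0.23 SE, adjusted p = 2.64e-05). Catalase, Cat, had a log2 change of 0.30, Gpx4 0.17 and Sod1 0.16, each with an adjusted p of 1.

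The thioredoxin system reduces protein disulphides with electrons from NADPH. Srxn1, which encodes sulfiredoxin, the enzyme that repairs over-oxidized peroxiredoxins, had 210.5, 262, 241, 362 and 259 in permethrin animals, against 88.7, 81.3, 93.2, 85.0 and 85.3 in controls. The control animals were close together, with a log2 SD of 0.07, and Srxn1 was 3.03-fold higher with permethrin (log2 1.60 ± 0.14 SE, adjusted p = 1.08e-09). Txnrd1, the cytosolic thioredoxin reductase, had 802, 932, 826, 1181 and 1012 with permethrin, and 364, 298, 379.7, 344 and 378 in controls. It was 2.68-fold higher (log2 1.42 ± 0.14 SE, adjusted p = 9.35e-09). Its substrate thioredoxin, Txn1, had a log2 change of 0.20 and did not pass (adjusted p = 0.648).

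Osgin1, an oxidative stress-induced growth inhibitor, was listed with these genes and had 88.0, 95.6, 123, 91.0 and 83.5 with permethrin, against 45.6, 87.3, 38.3, 41.0 and 53.9 in controls. Control animal 2 stood above the lowest permethrin animal, so the groups overlapped, and the adjusted p of 0.0449 was near the threshold (fold 1.88) and was above it in 18 of 25 alternative settings. In the list, 3 of 18 genes rose, with a median of 0.05. Neither the mitochondrial reductase Txnrd2 (log2 0.04) nor the peroxiredoxin Prdx4 (0.15) passed. Prdx1, Prdx5 and Prdx6 have no probe set with a single gene symbol and were not analysed here.

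Enzymes of the pentose phosphate pathway supply NADPH. Pgd, 6-phosphogluconate dehydrogenase, had 1283, 1196, 1258, 1291 and 1427 in permethrin animals and 1009, 662, 824, 582 and 596 in controls, 1.80-fold higher (adjusted p = 0.0015). The permethrin animals were close together and the controls spread more widely. Taldo1, transaldolase, was 1.5-fold higher, with 903 to 1382 against 639 to 838 (adjusted p = 0.0209), and its call was lost in 11 of 25 settings. These were 2 of 14 genes in the list, and none fell. Transketolase, Tkt, had a log2 change of 0.11 and malic enzyme, Me1, 0.21, and neither passed. G6pdx has no probe set with a single gene symbol and was not analysed here.

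**Figure D2:**
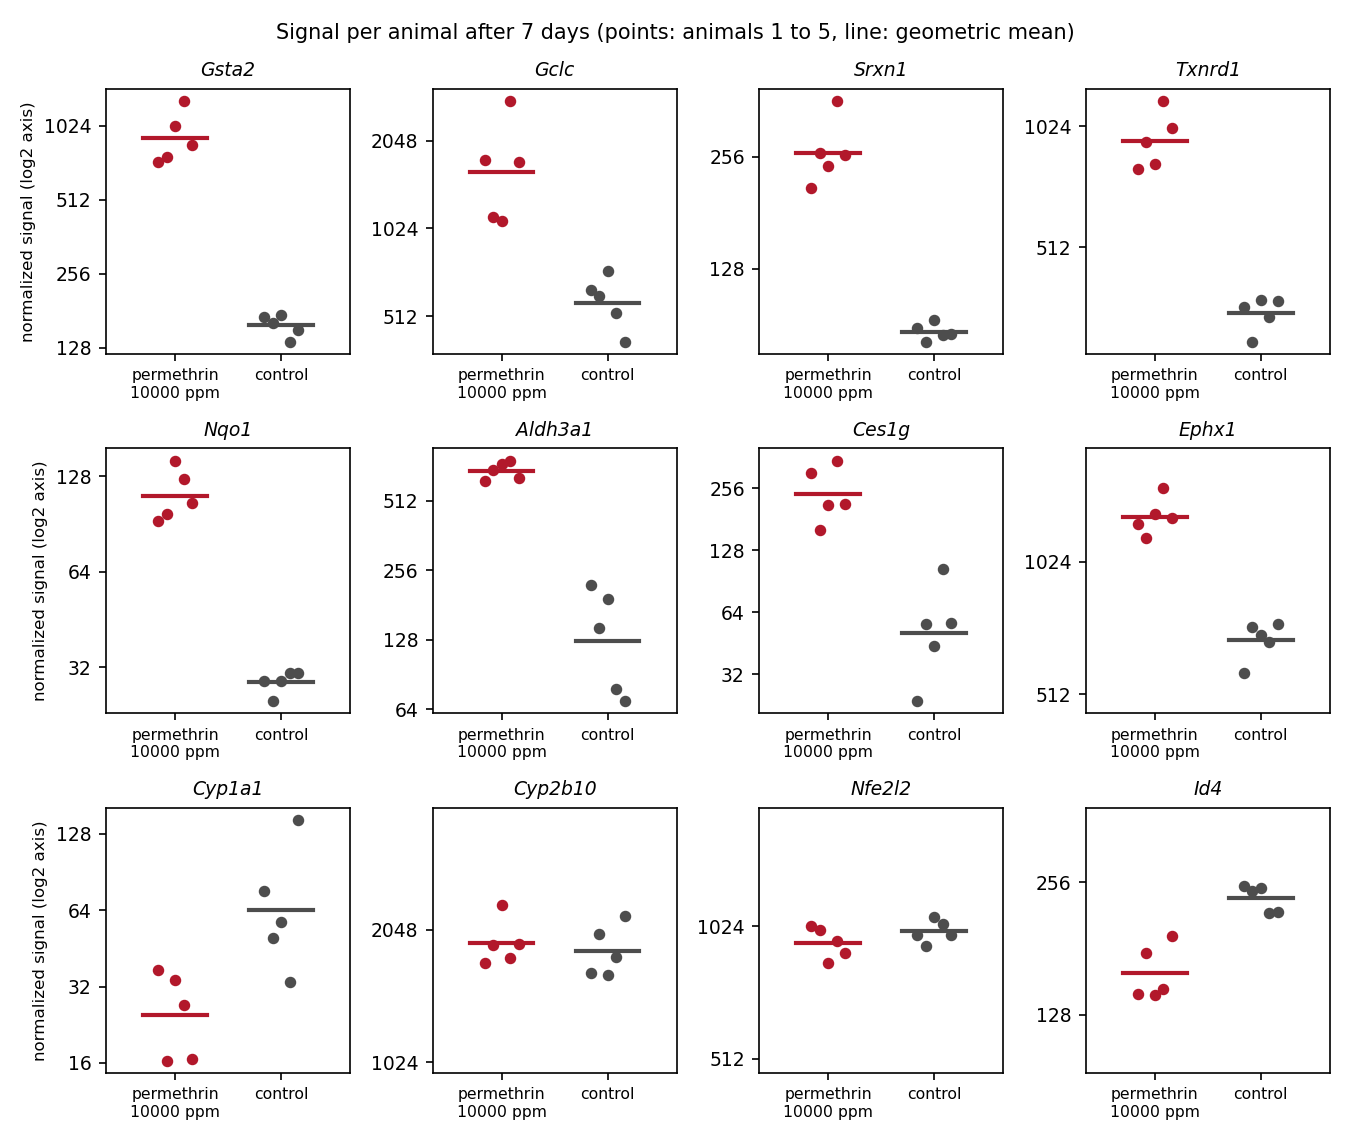
Normalized signal (log2 axis) of 12 genes in each of the 5 permethrin 10000 ppm and 5 control animals after 7 days, with lines at the geometric means. Gsta2 sits between 733 and 1293 with permethrin and between 135 and 173 in controls, while Cyp2b10 and Nfe2l2 overlap between the groups.

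The 250 bases before and 50 from the start site of each gene were searched for TGACNNNGC, a core of the antioxidant response element, on both strands. Windows came from the RefSeq promoter table of build GRCm38.p6, which matched 24 of the 30 genes that rose. The motif was present for 8 of these 24 genes (33.3%), against 1760 of 10484 tested genes with a window (16.8%). These 8 were Acox2, Fetub, Gclm, Mgst1, Pgd, Pir, Srxn1 and Txnrd1. The letters can overlap TGACTCA, the AP-1 motif, as they did in Acox2 and at 1 of the 2 matches in Pir. The windows below are shown since their genes belong to glutathione synthesis, the thioredoxin system and iron binding, and the capitals mark the matches, which lie on the strand opposite to the gene and so read as GCNNNGTCA. In Gclm (chr3:122245307-122245606, plus strand) the match ended 126 bases before the start, in Txnrd1 (chr10:82858956-82859255, plus strand) 84 bases before it, and in Srxn1 (chr2:152105274-152105573, plus strand) it began 29 bases after it. In Pir (chrX:164269181-164269480, plus strand) the match that overlaps AP-1 ended 206 bases before the start. A match is a string of letters in a window and no measurement of binding.
Gclm: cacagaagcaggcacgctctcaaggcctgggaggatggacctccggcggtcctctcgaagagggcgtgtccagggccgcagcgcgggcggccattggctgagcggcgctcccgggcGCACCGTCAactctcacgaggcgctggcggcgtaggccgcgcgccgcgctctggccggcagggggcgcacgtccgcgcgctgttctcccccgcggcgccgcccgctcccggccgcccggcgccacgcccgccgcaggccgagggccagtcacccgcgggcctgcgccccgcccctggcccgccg
Txnrd1: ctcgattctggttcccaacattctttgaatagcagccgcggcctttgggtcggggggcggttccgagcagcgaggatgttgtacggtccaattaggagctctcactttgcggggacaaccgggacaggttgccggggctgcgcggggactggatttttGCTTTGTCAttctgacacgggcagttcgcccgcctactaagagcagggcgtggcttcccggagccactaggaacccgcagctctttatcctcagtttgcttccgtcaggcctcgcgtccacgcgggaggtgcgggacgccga
Srxn1: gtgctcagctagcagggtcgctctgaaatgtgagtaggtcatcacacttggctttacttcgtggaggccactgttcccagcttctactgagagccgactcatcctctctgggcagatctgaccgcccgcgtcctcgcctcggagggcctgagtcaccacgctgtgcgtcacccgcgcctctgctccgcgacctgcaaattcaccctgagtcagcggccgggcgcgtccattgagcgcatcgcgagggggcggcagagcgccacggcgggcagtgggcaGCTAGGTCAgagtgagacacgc
Pir: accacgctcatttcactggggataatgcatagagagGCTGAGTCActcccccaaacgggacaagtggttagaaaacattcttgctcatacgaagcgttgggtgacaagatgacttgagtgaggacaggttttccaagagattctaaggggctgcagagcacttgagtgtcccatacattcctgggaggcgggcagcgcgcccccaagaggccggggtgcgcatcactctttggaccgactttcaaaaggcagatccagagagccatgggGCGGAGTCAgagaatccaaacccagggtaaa

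Reductases of quinones and carbonyls formed the list with the most members past the threshold, 5 of 23, with none lower and a list median of 0.09. Nqo1, a quinone reductase widely used as a marker of NRF2 activity, had 92.6, 97.5, 144, 126 and 105 in permethrin animals, against 29.1, 25.0, 29.1, 30.8 and 30.8 in controls. Every permethrin animal was at least 3 times the highest control, and Nqo1 was 3.86-fold higher (log2 1.95 ± 0.23 SE, adjusted p = 9.92e-07). Blvrb, biliverdin reductase B, which also reduces flavins, had 203 to 342 with permethrin and 45.5 to 118 in controls, 3.32-fold higher (adjusted p = 1.57e-05). The carbonyl reductases Cbr3 and Cbr1 were 2.60-fold and 1.69-fold higher. Akr1b8, an aldo-keto reductase, was 1.75-fold higher (adjusted p = 0.00272), with 209 to 375 against 144 to 175. Cbr2, which is abundant in club cells, had a log2 change of 0.07, and Nqo2 one of -0.02, and neither passed.

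Aldh3a1 oxidizes medium-chain and aromatic aldehydes. Its signals were 621, 697, 738, 765 and 644 in permethrin animals, and 220.1, 143, 191, 78.4 and 69.3 in controls. The controls fell into a higher trio and a lower pair, and all permethrin animals stood well above both (5.45-fold, log2 2.45 ± 0.29 SE, adjusted p = 8.45e-07). Aldh1a1, a retinal dehydrogenase of club cells, was 1.21-fold higher, with 5649.5 to 6301 with permethrin and 4606 to 5252 in controls (adjusted p = 0.00519). Aox1, aldehyde oxidase, had a log2 change of 0.72 with groups that did not overlap, 326 to 618 against 201 to 271, but an adjusted p of 0.0892. The list held 20 tested genes, of which 2 rose and none fell, and its median was 0.17.

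Carboxylesterases, the class of enzymes that splits the permethrin ester, had 2 of 13 tested hydrolases higher, none lower and a median of 0.19. Ces1g had 304, 160.5, 214, 349.5 and 215 in permethrin animals, against 23.6, 55.9, 44.0, 104 and 56.5 in controls. The spread within both groups was wide, but the lowest permethrin animal was above the highest control, and Ces1g was 4.70-fold higher (log2 2.23 ± 0.28 SE, adjusted p = 3.63e-06). Ces1f was 2.39-fold higher, with 187 to 263 against 70.6 to 114 (adjusted p = 0.00461). Ces1e, at a log2 change of 0.63, and Ces1h, at 0.83, had groups that did not overlap and missed the threshold. Ces1d, also among the club cell markers, had a log2 change of 0.53, with an adjusted p of 1. The probe set of Ces1f belongs to a kind that can also bind transcripts of related genes, as do those of Gstm1, Srxn1 and Pgd.

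Ephx1, the microsomal epoxide hydrolase, had 1247, 1157, 1312, 1504 and 1285 in permethrin animals and 571, 726, 699, 675 and 739 in controls, 1.91-fold higher (log2 0.93 ± 0.11 SE, adjusted p = 7.42e-07). It was the only one of 18 tested conjugation and hydrolysis genes past the threshold, of 45 listed. Members of the Ugt1a cluster have no probe set with a single gene symbol and were not analysed here. Among 16 transporters, Abcc3, which exports glucuronide conjugates, rose 1.64-fold, with 219 to 303 against 137 to 165 (adjusted p = 0.000125). Abcb6, a mitochondrial porphyrin transporter, had a log2 change of 0.75 and an adjusted p of 0.0563.

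Of 19 genes of haem, iron and metallothioneins, Hmox1 and Pir rose and none fell, with a median of 0.16. Hmox1, haem oxygenase 1, had 122, 127, 111, 157 and 83.9 with permethrin, against 76.3, 69.0, 70.6, 59.8 and 67.8 in controls. The groups did not overlap, though permethrin animal 5 was close to the highest control (1.72-fold, adjusted p = 0.011). Pir, an iron-binding nuclear protein, was 1.44-fold higher at an adjusted p of 0.0499, with 241 to 285 against 153 to 204, and its call was lost in 17 of 25 settings. The metallothionein gene Mt1 had a log2 change of 0.83 with groups that did not overlap and an adjusted p of 0.0966, and the ferritin gene Fth1 one of 0.00.

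**Figure D3:**
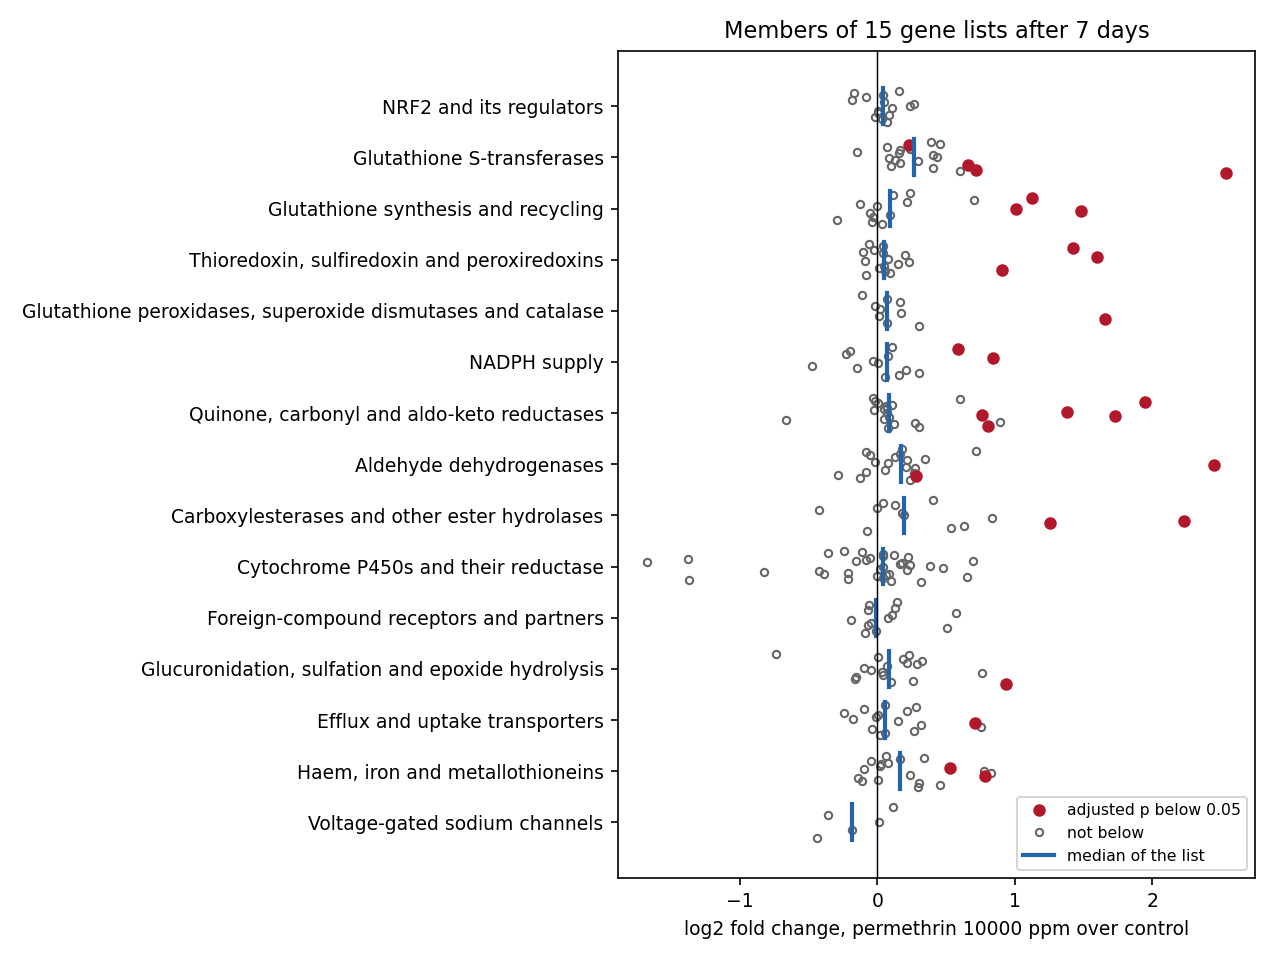
Log2 fold change of permethrin 10000 ppm over control after 7 days for each tested member of 15 gene lists, with filled points for genes past the threshold and blue bars at list medians. The filled points lie between 0.23 and 2.53, and the P450, receptor, NRF2 regulator and sodium channel lists have none.

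The remaining genes past the threshold lay outside these lists. Entpd5, a nucleoside diphosphatase of the endoplasmic reticulum, had 238 to 329 with permethrin and 107 to 166 in controls, 2.11-fold higher (adjusted p = 0.00189). Acox2, a peroxisomal oxidase of branched-chain and bile acid intermediates, was 2.37-fold higher, with 109.9 to 153 against 45.8 to 71.9, and was the only one of 24 genes of peroxisomal and fatty acid oxidation that passed. Fetub and Afp encode secreted proteins that are known mainly from liver and, for Afp, fetal liver. Fetub had 58.1, 58.1, 54.5, 60.4 and 39.9 with permethrin and 23.8, 29.2, 28.8, 20.1 and 30.7 in controls, 2.05-fold higher. Afp had 76.1, 62.2, 107, 102 and 59.0 with permethrin and 40.6, 36.0, 40.8, 30.8 and 42.9 in controls, 2.08-fold higher (adjusted p = 0.0205). In both genes the groups did not overlap. The liver genes as a list went the other way in these animals, with 14 of 15 changes negative and a median of -0.91, and none passed.

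Id4, an inhibitor of basic helix-loop-helix transcription factors, was the only gene that fell. It had 143, 177, 142, 147 and 193 in permethrin animals, against 251, 245, 248, 218 and 219 in controls. The groups did not overlap, and the log2 change was -0.57 ± 0.12 SE (adjusted p = 0.0205). The call was lost in 9 of 25 settings. Its other 2 probe sets gave log2 changes of -0.22, at unadjusted p-values of 0.15 and 0.356. The next genes by p-value among those lower with permethrin did not pass. They were Ppp1r3c, a glycogen-targeting subunit of protein phosphatase 1 (log2 -0.60, adjusted p = 0.159), Cyp1a1 (-1.37, 0.231), 4833447I15Rik (-0.72, 0.327) and the interferon-induced Oas1a (-0.81, 0.416).

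None of the 15 genes that encode NRF2 and its regulators passed, and their changes in the probe sets used ran from -0.19 to 0.26. The upper end was the small MAF gene Mafg. A further Mafg probe set gave a log2 change of 0.40 (limma, unadjusted p = 0.00292, adjusted p over all probe sets = 0.99). Nfe2l2 had 1025, 1005, 844, 948 and 889.6 in permethrin animals and 978, 922, 1073, 1039 and 980.2 in controls. The groups overlapped, and the 95% interval of the log2 change ran from -0.24 to 0.07. Keap1 overlapped likewise, with an interval from -0.18 to 0.38.

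None of 34 cytochrome P450s and their electron donors passed either. Cyp2b10, in liver the usual target of the receptor CAR, had 1721 to 2326 with permethrin and 1612 to 2202 in controls, and its interval ran from -0.12 to 0.25. Cyp2f2, a P450 of club cells, had 5434 to 6269.5 against 5462 to 6169. Cyp1a1, the classical target of the aryl hydrocarbon receptor, had 37.2, 16.3, 34.0, 27.0 and 16.6 with permethrin, against 76.4, 50.0, 57.6, 33.5 and 145 in controls. The controls spread over more than 4-fold and 1 of them lay among the permethrin animals, and with a log2 change of -1.37 ± 0.37 SE the adjusted p was 0.231. The electron donor Cyb5a had a log2 change of 0.32, and Por and several other members were not analysed here. Cyp3a11, a P450 abundant in liver, had a log2 change of -1.67 with an adjusted p of 1 and was spread from 45.2 to 325 with permethrin and from 50.5 to 625 in controls. No gene among 13 receptors and partners passed, and no gene among the 5 sodium channel genes tested of 15 listed.

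The 30 genes that rose, selected on these same animals, did so in every permethrin animal, but not to the same extent. The median log2 difference from the control mean over these genes was 0.97, 0.94, 1.07, 1.37 and 1.02 in permethrin animals 1 to 5, and 0.02, 0.04, 0.11, -0.08 and -0.07 in control animals 1 to 5. Permethrin animal 4 had the highest signal of its group in 22 of the 30 genes, and animals 1 and 2 the lowest in 12 and 11. The Gapdh 3' to 5' log2 ratio was 0.33, 0.32, 0.14, 0.14 and 0.65 in permethrin animals 1 to 5. Its part in these differences was not tested.

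**Figure D4:**
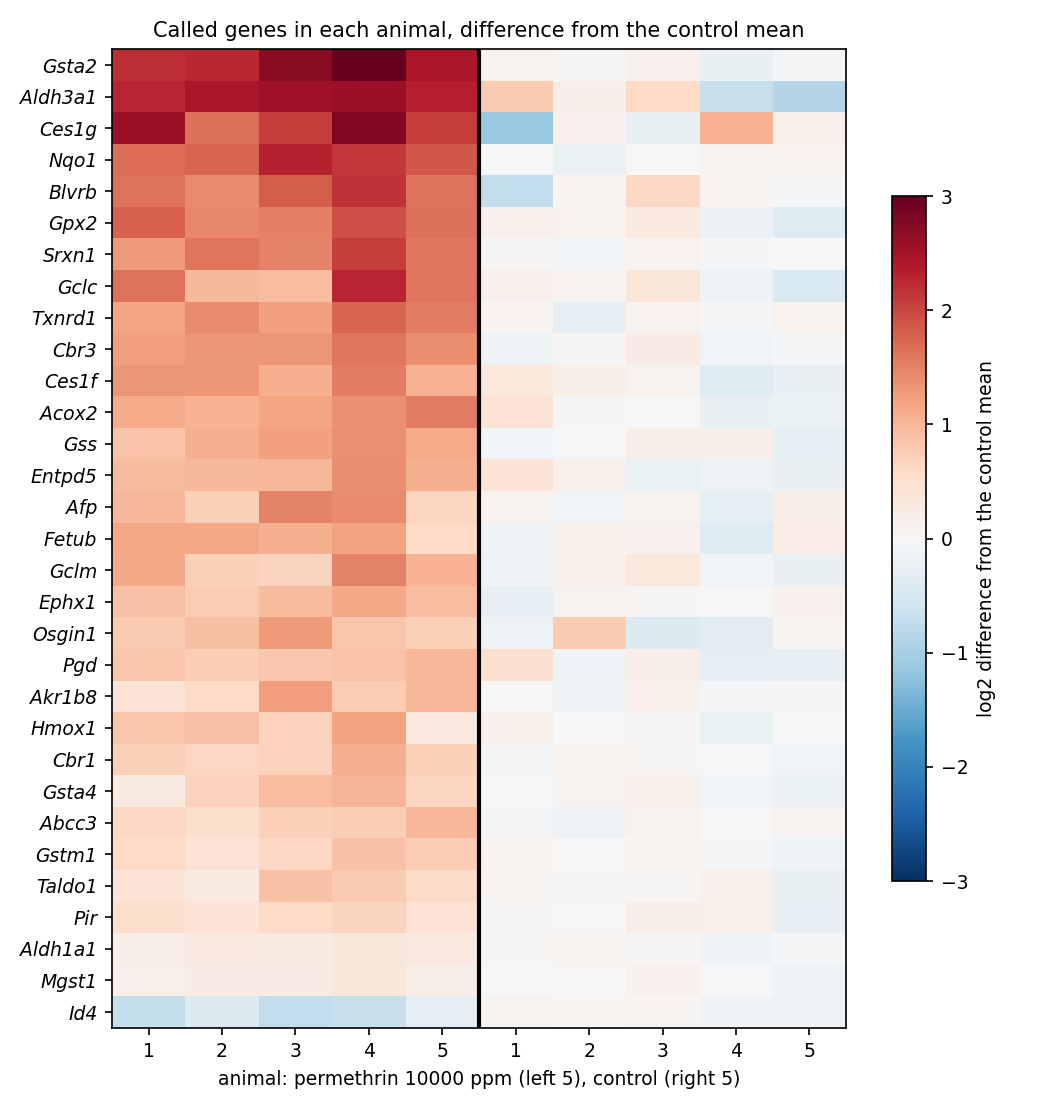
Difference of each animal from the control mean (log2, colour) for the 31 genes past the threshold, with the 5 permethrin 10000 ppm animals left and the 5 controls right. All 30 upper rows, selected on these same animals, are above 0 in every permethrin animal, and animal 4 is the highest of its group in 22 of them.

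Other features of the tissue also varied between the animals. A clock score (log2 Dbp minus log2 Arntl, transcripts that peak at opposite times of day) was -2.08, 0.44, 1.71, 1.41 and 1.23 in permethrin animals and -2.90, -2.73, -1.22, -0.21 and -0.01 in controls. The score averaged 0.54 with permethrin and -1.41 in controls (SD 1.54 and 1.36), and the groups overlapped. Among 16 clock genes none passed, with changes from -0.71 to 1.42 and a median of 0.26. This median mixes genes that peak at opposite times of day. Of 14 glucocorticoid-induced genes all were positive, against 6438 of 13020 over all genes, and none passed. The median of this list was 0.29 here and 0.65 with isoniazid over control. Fkbp5, the best known of them, had 184, 196, 503, 207 and 184 with permethrin and 96.6, 128, 111, 178 and 157 in controls, which did not overlap (log2 0.84, adjusted p = 1). The mean log2 signal of liver genes was 6.44, 5.59, 5.07, 5.49 and 4.82 with permethrin and 6.59, 6.80, 4.60, 6.13 and 7.11 in controls. Club cell markers were lowest in control animal 5, at a mean log2 signal of 8.94, while the other 9 animals had 9.80 to 10.4.

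With the clock score as a covariate 26 of the 31 genes still passed, and Afp, Taldo1, Osgin1, Mgst1 and Pir did not. With liver signal as a covariate 28 passed, without Taldo1, Mgst1 and Pir, and with club cell signal 30, without Osgin1. The club cell signal includes Aldh1a1, itself among the 31 genes. These covariates were chosen after seeing the data, and the part of these features in the changes was not tested. When the array of highest Gapdh ratio in each of the 2 groups was left out 27 passed, without Taldo1, Osgin1, Mgst1 and Pir. No list of cell type, immune, stress or growth genes outside the 15 had a member past the threshold, except Aldh1a1 among 19 club cell markers. The proliferation gene Mki67 had 61.6 to 105 with permethrin and 44.6 to 117 in controls, with a 95% interval of the log2 change from -0.44 to 0.60, and Top2a one from -0.42 to 0.46. Both intervals span 0, and animals left out of the model turned the sign of either gene. The cell cycle inhibitor Cdkn1a had 642 to 1559 with permethrin and 613 to 828 in controls (log2 0.52, adjusted p = 1). Of 23 genes of cholesterol and fatty acid synthesis 19 were negative, with a median of -0.19, and of 18 fibroblast and smooth muscle markers 17 were negative, with a median of -0.15, and none of either list passed.

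**Figure D5:**
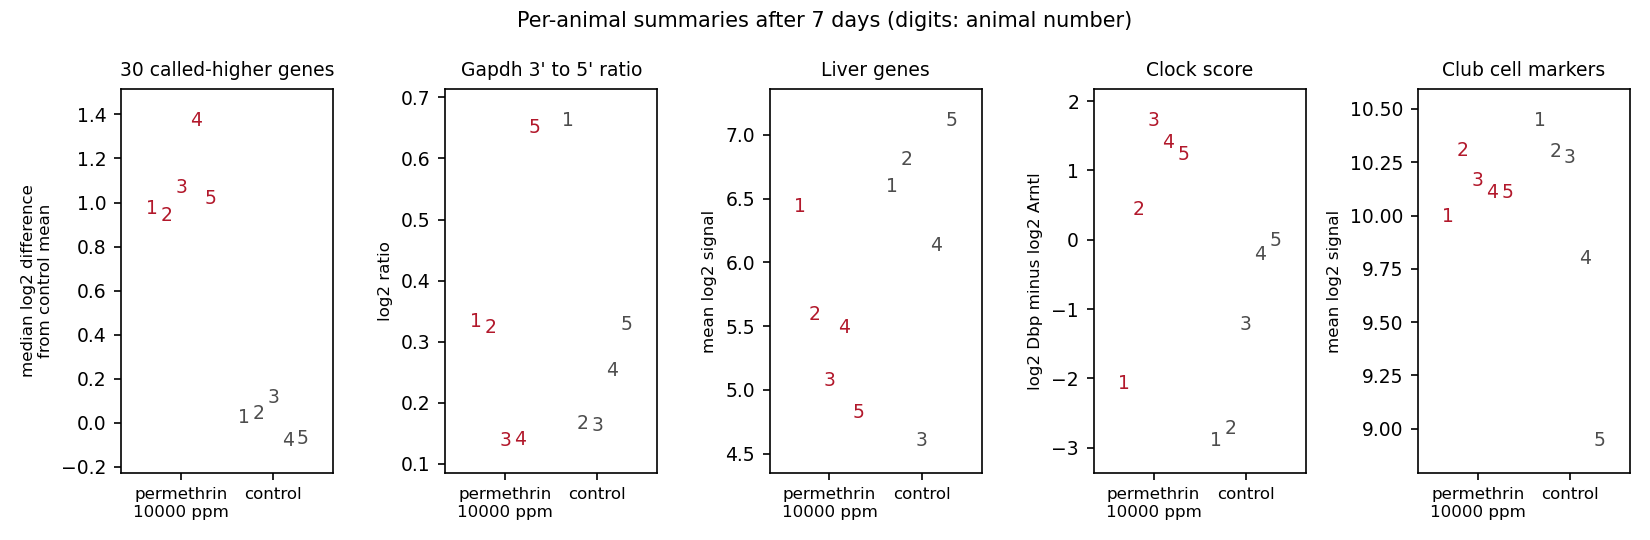
Per-animal summaries after 7 days, with digits for the animal number in the permethrin 10000 ppm and control groups, showing from left to right the 30 genes that rose, the Gapdh 3' to 5' ratio, liver genes, the clock score and club cell markers. Only in the first panel are the groups apart, with 0.94 to 1.37 against -0.08 to 0.11. Its 30 genes were selected for their difference between these same animals, so that separation follows from the selection. The other panels were not selected in this way.

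Mice on 5000 ppm for 7 days shared the control animals, so their values are given side by side. Against these controls 12 genes rose at 5000 ppm (0.0922% of genes). The genes named here were selected for their change at 10000 ppm, which by itself favours a larger value at that dose. Srxn1 had 151, 168, 155, 149 and 162 at 5000 ppm, and its log2 change over control was 0.86 at 5000 ppm and 1.60 at 10000 ppm. Gsta2 had 446 to 609 at 5000 ppm, with log2 changes of 1.79 at 5000 ppm and 2.53 at 10000 ppm.

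In the direct test of 10000 against 5000 ppm no gene passed (limma, 0% of 13020 genes), with 269 genes at an unadjusted p under 0.05. The smallest p-value was that of Srxn1, whose difference was 0.74 ± 0.14 SE on the log2 scale at an adjusted p of 0.0836, with all 5 animals at 10000 ppm above all 5 at 5000 ppm. With the fit restricted to the 7-day groups, or without permethrin 10000 ppm animal 1, Srxn1 was past the threshold. The interval of the difference was 0.31 to 1.18 for Gsta2, 0.36 to 1.52 for Aldh3a1, -0.16 to 0.77 for Nqo1 and -0.35 to 0.62 for Ces1f. These intervals are not adjusted for the number of genes tested, and none of these genes passed (adjusted p = 0.9997 for each).

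Between permethrin at 10000 ppm and isoniazid at 2500 ppm, 24 genes differed after 7 days (0.184%), 23 higher (0.177%) and 1 lower with permethrin. Doses of these compounds are not matched. Of the 30 genes that rose over control, 20 were also called higher than with isoniazid. The 30 genes were selected for high values in these same permethrin animals, which by itself favours this overlap. Gsta4 was not among these 20, and its log2 change over control was 0.71 with permethrin and 0.41 with isoniazid. Mt1 and Ppp1r3c, which missed the threshold with permethrin, passed with isoniazid over control (log2 1.01 and -0.87). Gsta2 had 118 to 214 with isoniazid, against which the permethrin animals stood 2.34 higher on the log2 scale (adjusted p = 5.64e-09). Ces1g had 160.5 to 349.5 with permethrin and 26.4 to 40.5 with isoniazid, a log2 difference of 2.81 ± 0.28 SE (adjusted p = 2.94e-08). The gene that was lower was Cyp1a1. It had 16.3 to 37.2 with permethrin and 403, 300.2, 187, 407 and 205 with isoniazid, a log2 difference of -3.53 ± 0.37 SE (adjusted p = 7.04e-08). Against the shared controls the log2 change of Cyp1a1 was -1.37 with permethrin and 2.16 with isoniazid.

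The 4 genes that differed between the compounds without passing against control were Cyp1a1, Aox1, Ikbkg and Scn3b. Scn3b, an auxiliary sodium channel subunit, had a log2 difference of 0.76 ± 0.15 SE (adjusted p = 0.00856). Its change against control was 0.01 with permethrin and -0.75 with isoniazid. Ikbkg, which encodes the regulatory subunit of the IKK complex, had a difference of 0.44 (adjusted p = 0.0204) and a change against control of 0.39 with permethrin and -0.05 with isoniazid. Alas1, the first enzyme of haem synthesis, had a change of 0.45 with permethrin and 0.99 with isoniazid, and the difference of -0.53 did not pass (adjusted p = 0.11).

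The 14-day groups held other animals with controls of their own. There, 28 genes passed (0.215%), 27 of them higher (0.207%). All 30 genes that rose at 7 days had a positive change at 14 days, 24 of them passed again, and in 28 of the 30 all 4 permethrin animals lay above the control mean. Srxn1 had 292, 351, 172 and 275 with permethrin at 14 days, against 95.1, 68.8, 88.0, 90.0 and 71.9 in controls of that time (log2 1.68). Permethrin animal 3 of that group was the lowest in Srxn1, Gsta2, Nqo1, Aldh3a1 and Ces1g. Cyp1a1, which missed the threshold at 7 days, had 7.42, 15.2, 3.91 and 15.7 with permethrin at 14 days and 28.9 to 55.2 in controls, and it fell (adjusted p = 0.00477). Animals 1 and 3 were below the filter signal of 10.8, close to background, so the size of the fall was not measured. Abcb6, Ikbkg and Orm1, an acute-phase protein gene of liver, also passed at 14 days and not at 7 days. The Gapdh 3' to 5' log2 ratio ran from 0.085 to 1.29 with permethrin at 14 days and from -0.013 to 1.80 in controls of that time, and markers of neighbouring tissues also moved between these groups. The mean log2 signal of brown and white fat genes ran from 5.11 to 8.74 with permethrin and from 4.70 to 6.52 in controls, with all 10 changes positive and a median of 1.72, against 0.26 at 7 days. Cardiac muscle genes ran from 6.76 to 9.20 with permethrin and from 6.16 to 7.74 in controls (16 of 17 positive, median 0.95, against -0.13 at 7 days). Skeletal muscle genes ran from 3.97 to 6.41 with permethrin and from 3.09 to 4.98 in controls (3 of 4 positive, median 0.73, against -0.32 at 7 days), and liver genes from 5.06 to 6.86 with permethrin and from 4.81 to 6.04 in controls. The groups overlapped in each of these lists and no member passed. The part of the Gapdh ratio and of these markers in the 14-day values was not tested.

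In the test of the difference in effect, 14 days minus 7 days, no gene passed (limma, 0%), with 293 genes at an unadjusted p under 0.05. Time and age differ together, and the 14-day groups were measured on 4 and 5 animals. The 6 genes that rose at 7 days and did not pass at 14 days were Gclc, Akr1b8, Hmox1, Afp, Taldo1 and Osgin1. For Gclc the log2 change was 0.98 at 14 days and 1.48 at 7 days, with an interval of the difference from -1.27 to 0.26. For Afp the change was 0.35 at 14 days and 1.05 at 7 days, with an interval from -1.37 to -0.03. These intervals are not adjusted for the number of genes tested, and neither gene passed (adjusted p = 0.9998 for each). Genes selected for their change at 7 days are by that alone favoured to show a smaller change at 14 days. Id4 had 196, 182, 135 and 177 with permethrin at 14 days and 150.4 to 179 in controls of that time. Its change was 0.08 at 14 days and -0.57 at 7 days, a difference of 0.65 with an interval from 0.29 to 1.01 and an adjusted p of 1.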

How the data were processed

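Lungs were kept in RNA stabilization solution and biotin-labelled cRNA was hybridized to Affymetrix arrays, per the labels' protocols. The deposited values are 1 signal intensity on a linear scale for each probe set and array. Per the submitters' processing notes these were made with MAS5, for which no version was given. Every array had a trimmed mean of 100.0. Of 45101 probe sets, 34945 carry 1 gene symbol, 932 several, 9160 none and 64 are controls, by the platform annotation. Values were taken to log2 with no pseudocount and quantile normalized over 39 arrays, which takes out shifts common to most genes and leaves the brightest probe sets at a shared ceiling. For a gene with several probe sets the brightest on average was used, and genes in the upper 60% of probe sets (mean log2 signal of at least 3.43) were kept, 13020 in all. The number of arrays sets the precision.

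A model of 8 group means was fitted to all arrays with limma 3.58.1 in R 4.3.3 (the data.table package, version 1.17.8), with empirical Bayes and a mean-variance trend. P-values are two-sided and adjusted over all genes of a comparison by the Benjamini-Hochberg method, with 0.05 as threshold, and intervals are at 95%. Samples of a group are separate animals per the titles. On simulated data 200 of 13020 genes were changed. The comparison at 7 days recovered 41.8% of genes at a log2 change of 0.5, 76.1% at 1 and 98.5% at 2, with 6 false calls. The simulated noise was normal and independent between genes and animals, and more genes were changed than were called in the data. These shares need not hold for the data. Named were all genes past the threshold, the 5 lower genes of smallest p, up to 4 genes of smallest p in each of 15 of the 41 gene lists, 12 genes always given, and in tests of a difference up to 5 genes past the threshold or the 3 of smallest p; other genes were chosen after their values were seen. The comparison, the lists and the named-gene rule were chosen with earlier results of these data known. The 15 lists cover redox defence, foreign-compound metabolism, transport and sodium channels, the others stress, growth, lipid and clock genes, lung cell types and neighbouring tissues. Alternatives varied normalization, pseudocount, filter, probe set choice, the arrays fitted, a block for replicate number, weights of arrays, a robust variance model and the animals; leaving out the array of highest Gapdh ratio in each of the 2 groups and the liver, clock and club cell covariates were chosen after seeing the data. Probe sets with several symbols or none were given no gene name.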

Additional observations from a re-analysis of the deposited data

Results flagged for a closer look

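Among 156 pairs of a named gene and a 7-day group, 10 had an animal set far apart from the other 4, and chance alone gives about 5% of pairs. With permethrin 10000 ppm, animal 4 was far above the rest in Cbr1 (507, next 392) and Entpd5 (329, next 260.1), animal 5 was far above in Abcb6 (153, next 119) and far below in Fetub (39.9, next 54.5), and animal 2 was far above in Scn2b (18.0, next 10.7). Among controls, animal 2 was low in Nqo1 (25.0, next 29.1), animal 4 low in Aox1 (201, next 253), animal 3 low in Cyp3a11 (50.5, next 316), animal 1 high in Gsr (315, next 211) and animal 1 low in Scgb1a1 (8464, while the other 4 were at 9304, the top of the normalized scale).

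Probe sets outside the analysis by gene also differed. Of those whose annotation carries several symbols, 5 passed the same threshold among all probe sets, all higher with permethrin, at 8.36-fold, 1.83-fold, 1.73-fold, 1.66-fold and 1.82-fold over control. The first had signals of 330.1 to 893 with permethrin and 46.5 to 74.6 in controls. A probe set with no symbol was 1.93-fold higher, with 63.5 to 81.3 against 34.8 to 40.1. No gene is named for them.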

How the results depend on the processing

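The 31 genes past the threshold at 7 days became 20 with each array centred on its median (all 20 among the 31), and 28 to 45 under the other planned settings. Leaving out each animal gave 24 to 29 genes, the lowest without permethrin animal 4. In 25 alternatives, 20 of the 31 genes kept their call wherever they were tested (Fetub in 24, since the filter on the upper 40% of probe sets removed it) and none of the 31 changed sign. Calls were lost most often for Osgin1 (18 of 25), Mgst1 and Pir (17 each), Taldo1 (11), Id4 (9) and Afp (6). With replicate number as a block 31 genes passed, 29 of them shared; same-numbered animals of both groups did not deviate together (correlations of 0.02, 0.13, -0.12, 0.22 and 0.06), so the numbers were not taken as pairs. Between 10000 and 5000 ppm, where no gene passed, the fit of the 7-day groups gave 1 (Srxn1), array weights 3, and leaving out an animal 0 to 1 (Srxn1 without permethrin 10000 ppm animal 1, Shh without permethrin 5000 ppm animal 5). Between permethrin and isoniazid, 24 genes became 15 with median centring, 42 with array weights, and 21 to 25 without an animal. The difference in effect between the times stayed at 0 genes throughout, and was not run on the 7-day groups alone, which lack it. Genes that reversed had all missed the threshold. Scgb1a1 changed to 0.10 with the deposited scaling and 0.12 with median centring, and ran from -0.039 to 0.013 without an animal. Top2a changed to -0.013 with the deposited scaling and ran from -0.12 to 0.10 without an animal, the lowest without control animal 4. Mki67 ran from -0.098 to 0.25, the lowest without control animal 4, and Cyp2b10 from -0.0086 to 0.13, the lowest without permethrin animal 3. The cause of these changes was not tested. Signals near the filter of 10.8 are close to background, which limits what can be read from genes such as Scn2b.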
